A study of Drosophila melanogaster with 6 samples.

Results

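The cuticle protein genes of *Drosophila* were followed in SIN3 187HA cells and in S2 cells. A row of the expression table counted as a cuticle protein gene where one of its gene symbols began with *Cpr* and a digit, *Twdl*, *Ccp84*, *Lcp*, *Pcp*, *Acp65*, *Cpap* or *Edg*. This rule used names only and no expression value, but it was chosen with earlier results of these data known. It gave 122 of 14540 rows, of which 70 were *Cpr*, 25 *Twdl*, 15 *Lcp*, 7 *Ccp84*, 3 *Edg*, 1 *Pcp* and 1 *Acp65* rows. No row began with *Cpap*.

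The insect cuticle is a layered matrix of chitin fibres and proteins that epidermal and tracheal cells secrete toward the outside of the animal. Most of its proteins belong to families of small secreted proteins. The Cpr family carries the Rebers and Riddiford domain, which binds chitin, and the larval cuticle proteins (Lcp), the Ccp84 group, Acp65Aa, Pcp and Edg78E belong to the same class of protein. The Tweedle family (Twdl) has a different conserved domain and acts in body shape. The *Edg* genes were named for their dependence on the steroid hormone ecdysone, whose pulses time the making of each new cuticle. The number and letters in most of these names give the position on the chromosome map, and many of the genes stand in tandem clusters that arose by duplication.

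RNA was sequenced from 2 groups of cultured cells, with 3 biological replicates in each group. SIN3 187HA cells are S2 cells with a stable transgene for SIN3 187HA, an HA-tagged isoform of SIN3, the scaffold protein of a histone deacetylase complex, and that transgene is driven by the copper-inducible metallothionein promoter. The control was S2, a line from *Drosophila* embryos with features of hemocytes (blood cells), without the transgene. On western blots of the paper, the SIN3 isoform that predominates in S2 cells was almost lost in SIN3 187HA cells. Both groups received CuSO4, given as 0.07 µM in the design text and, with 48 h of treatment, in the labels of replicate 1 of each group. The methods of the paper give the dose in M and not in µM, and which unit is right was not settled. The labels call the genotype of all samples wild type and do not say whether the SIN3 187HA line is 1 clone. SIN3 187HA cells were kept with Geneticin, as a transfected line. The effects of the transgene, of the loss of the other isoform, of selection and of separate culture cannot be told apart.

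The values are FPKM, that is fragment numbers corrected for transcript length and for library size, so that levels can be compared between genes of different length. The authors combined the 3 replicates, so each gene has 1 value per group, no spread between replicates can be given, and no test was made. A difference is described here as a gain or a loss where the SIN3 187HA value minus the S2 value is at least 1 FPKM in size, and as 2-fold where log2((SIN3 187HA + 1)/(S2 + 1)) is at least 1 in size. This scale understates the change of genes at low levels. *Sin3A*, at 2R:8459617-8480397, was at 2319 FPKM in SIN3 187HA cells and 56.9 FPKM in S2 cells, a difference of 5.33 on that log2 scale. Reads of the transgene fall on this gene, and it was higher in the cells labelled as carrying the transgene.

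The lowest values of long single-transcript genes placed the depth at about 15900000 fragments per library in SIN3 187HA cells and about 15300000 fragments per library in S2 cells. At this depth 1 FPKM amounts to about 30 fragments per group for the median annotated transcript of a cuticle protein gene, which is 828 nt long. Of the 118 rows that could be matched to the annotation, 26 had at least 10 estimated fragments in SIN3 187HA cells and 14 in S2 cells. These counts take the shortest annotated transcript of each gene, and most of the remaining values rest on fewer than 10 fragments.

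Most cuticle protein genes were silent or near silent in both groups. Of the 122 rows, 37 (30.3%) were listed at 0 in both groups, against 13.8% of all rows. A further 13 were listed at 0 only in SIN3 187HA cells and 21 only in S2 cells. The median level was 0.03 FPKM in SIN3 187HA cells and 0.0232 FPKM in S2 cells, where the medians of all rows were 2.74 FPKM in SIN3 187HA cells and 2.24 FPKM in S2 cells. A level of 1 FPKM was reached by 14 rows (11.5%, against 55.5% of all rows) in SIN3 187HA cells and by 8 rows (6.56%, against 53.9% of all rows) in S2 cells. The lists overlapped in 6 rows, which are 42.9% of the SIN3 187HA list and 75.0% of the S2 list. Of all rows, 7408 reached 1 FPKM in both groups, out of 8075 in SIN3 187HA cells and 7831 in S2 cells.

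**Figure D1:**
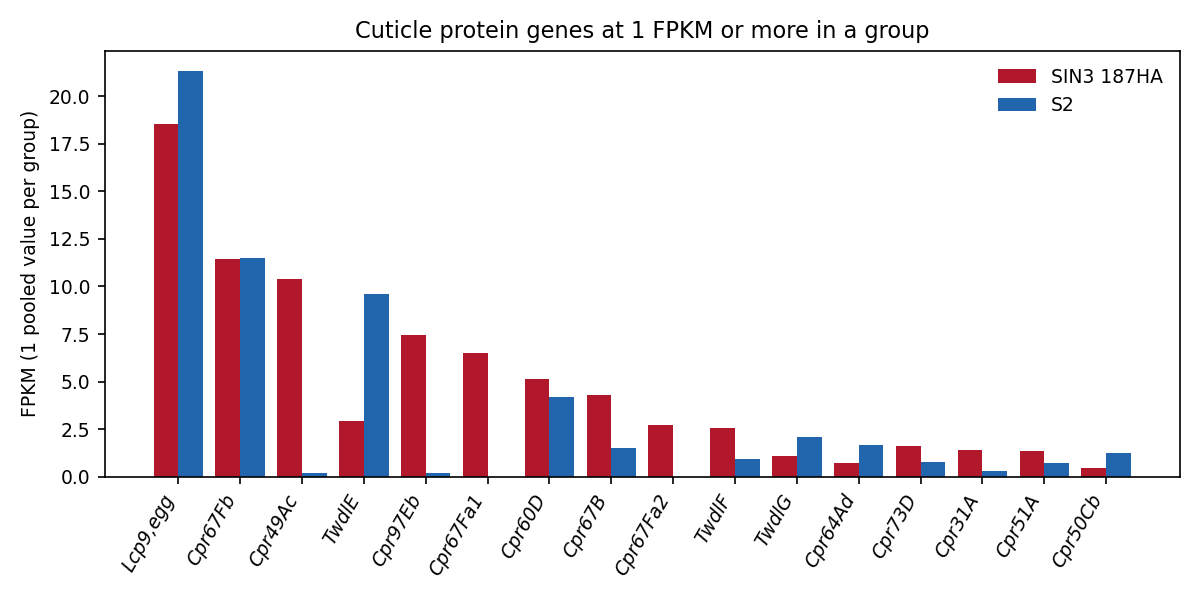
Level in FPKM (vertical axis, linear, from 0) of the 16 rows that reached 1 FPKM in SIN3 187HA cells (left bar of each pair) or S2 cells (right bar), ordered by the higher of both values. Each bar is 1 pooled value without an error. *Cpr67Fa1* and *Cpr67Fa2* were listed at 0 in S2 cells and stood at 6.52 and 2.71 FPKM in SIN3 187HA cells.

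The difference of 1 FPKM was reached by few cuticle protein genes. Gains numbered 7 of 122 rows (5.74%), whereas 23.6% of all rows gained 1 FPKM. Losses numbered 2 rows (1.64%), whereas 26.5% of all rows lost 1 FPKM. Both shares lay below those of all rows, most of which stand at higher levels. Differences of 2-fold on the log2 scale were seen for 5 rows upward (4.1%, against 6.59% of all rows) and 1 row downward (0.82%, against 6.35% of all rows). The median log2 difference was 0 for the cuticle protein genes and 0 for all rows. The summed level of the 122 rows was 88.6 FPKM in SIN3 187HA cells and 62.9 FPKM in S2 cells.

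**Figure D2:**
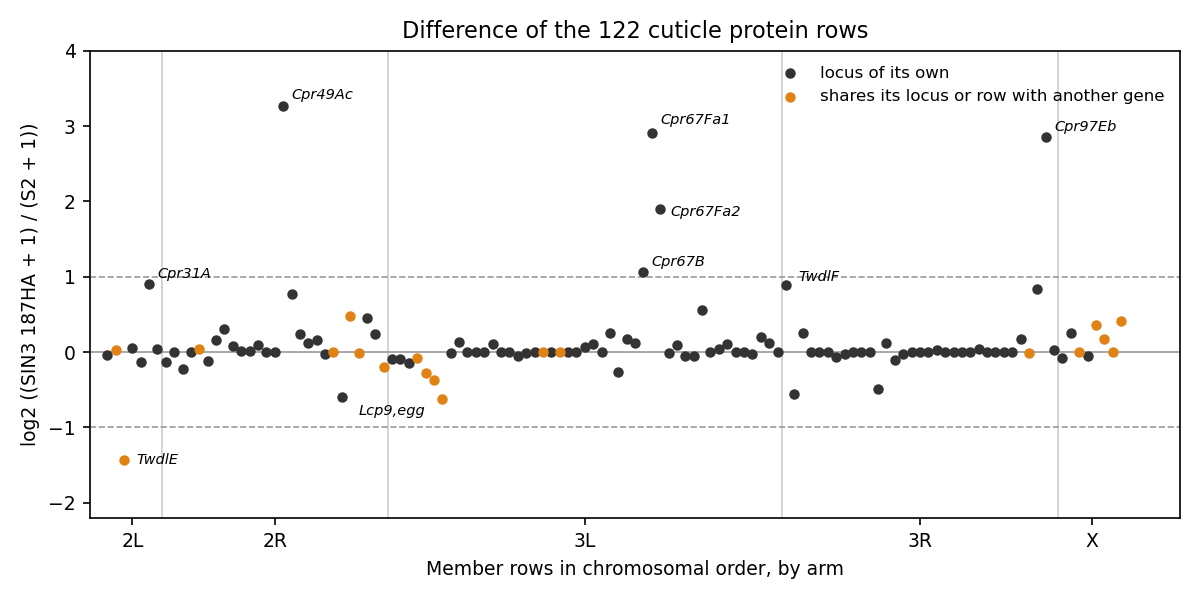
Difference of each of the 122 rows (vertical axis, log2 of (SIN3 187HA + 1)/(S2 + 1), dashed lines at 2-fold) in their order along the chromosome arms (horizontal axis, 1 point per row). Dark points are rows with a locus of their own and orange points share a locus or row with another gene. The 9 named rows differ by at least 1 FPKM, and the other points lie between -1 and 1.

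*Cpr49Ac*, a chitin-binding cuticle protein gene at 2R:8274472-8277562, had the largest gain. It stood at 10.4 FPKM in SIN3 187HA cells and 0.184 FPKM in S2 cells, a 56.7-fold difference in FPKM and 3.27 on the log2 scale. The levels amount to an estimated 554 to 761 fragments in SIN3 187HA cells, depending on the transcript, and 9 to 13 fragments in S2 cells. Its neighbour *Cpr49Ad* lies 975 bases away on the opposite strand. *Cpr49Ad* had 0.714 FPKM in SIN3 187HA cells, an estimated 16 fragments, and was listed at 0 in S2 cells.

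The *Cpr49A* cluster holds 8 genes, of which 5 were higher in SIN3 187HA cells, 1 was lower and 2 were listed at 0 in both groups. Their levels summed to 11.7 FPKM in SIN3 187HA cells and 0.332 FPKM in S2 cells, and *Cpr49Ac* made up most of the first sum. *Cpr49Ae* had 0.342 FPKM in SIN3 187HA cells and 0.131 FPKM in S2 cells. The remaining members of the cluster were at 0.121 FPKM or less in SIN3 187HA cells. The higher level was thus carried by 1 gene, with small values on the same side in its neighbours.

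*Cpr97Eb*, at 3R:22915426-22916852 on the minus strand, had the next largest gain. It stood at 7.45 FPKM in SIN3 187HA cells and 0.167 FPKM in S2 cells, a 44.7-fold difference in FPKM and 2.86 on the log2 scale, or about 303 fragments against 7. *Cpr97Ea*, which ends 1925 bases from it on the same strand, had 0.859 FPKM in SIN3 187HA cells and 0.0394 FPKM in S2 cells, or about 53 fragments against 2. *Cpr97Ea* stayed below the limit of 1 FPKM, and both genes of the pair were higher in SIN3 187HA cells.

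*TwdlC* and *TwdlT*, Tweedle genes of the same cluster, had small differences. *TwdlC* had 0.810 FPKM in SIN3 187HA cells and 0.604 FPKM in S2 cells, a difference of 0.17 on the log2 scale. *TwdlT* amounted to about 1 fragment in SIN3 187HA cells and 2 in S2 cells. The 4 rows of the cluster summed to 9.14 FPKM in SIN3 187HA cells and 0.841 FPKM in S2 cells.

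*Cpr67Fa1* and *Cpr67Fa2* were the gains with no signal in the control. *Cpr67Fa1*, at 3L:10883090-10883800, had 6.52 FPKM in SIN3 187HA cells, about 110 fragments, and was listed at 0 in S2 cells, where 3 fragments would have given 0.185 FPKM. *Cpr67Fa2*, at 3L:10884814-10885616, had 2.71 FPKM in SIN3 187HA cells, about 47 fragments, and was likewise listed at 0 in S2 cells. The genes stand 1013 bases apart on the plus strand and their names mark them as a duplicated pair. How reads that fit both copies were shared out is not given in the sources used here, so the split between them is uncertain. No fold is given against a value of 0.

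The third gene of the *Cpr67F* cluster had near-equal values in both groups. *Cpr67Fb*, which begins 1656 bases beyond *Cpr67Fa2* on the same strand, had 11.4 FPKM in SIN3 187HA cells and 11.5 FPKM in S2 cells, or about 140 fragments against 135. It had the highest level in both groups among rows that carry 1 symbol. An exon of *Cpr67Fb* overlaps that of an antisense RNA gene on the other strand, and the library kit did not mark strand, so the reads of both genes cannot be told apart.

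The other gains were smaller. *Cpr67B*, at 3L:9397897-9399274, had 4.27 FPKM in SIN3 187HA cells and 1.53 FPKM in S2 cells, a 2.79-fold difference in FPKM and 1.06 on the log2 scale. *Cpr31A*, at 2L:10054215-10055935, had 1.40 FPKM in SIN3 187HA cells and 0.287 FPKM in S2 cells, about 69 fragments against 14 and 0.90 on the log2 scale. *TwdlF*, at 3R:72742-74035, had 2.56 FPKM in SIN3 187HA cells and 0.916 FPKM in S2 cells, about 126 fragments against 43 and also 0.90 on the log2 scale. It was the 1 Tweedle gene with a gain. The other 6 gains were all *Cpr* genes, and each of the 7 had a locus of its own in the table.

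*TwdlG* lies 409 bases from *TwdlF* on the opposite strand, and its values differed the other way. It had 1.10 FPKM in SIN3 187HA cells and 2.09 FPKM in S2 cells, a difference of -0.999 FPKM that fell just short of a loss. *TwdlV*, the third Tweedle gene there, had 0.298 FPKM in SIN3 187HA cells and 0.0932 FPKM in S2 cells. The 3 genes together summed to 3.96 FPKM in SIN3 187HA cells and 3.10 FPKM in S2 cells.

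*TwdlE*, at 2L:7857077-7860838, was the row with the largest loss and the 1 row lower by 2-fold. It had 2.94 FPKM in SIN3 187HA cells and 9.62 FPKM in S2 cells, so that the S2 value was 3.27-fold that of SIN3 187HA cells, a log2 difference of -1.43 and about 161 fragments against 506. *TwdlE* shares an exon with *lectin-28C*, a gene for a sugar-binding protein on the other strand. *lectin-28C* had 30.8 FPKM in SIN3 187HA cells and 591 FPKM in S2 cells, a log2 difference of -4.22. Without strand the reads of both genes cannot be told apart in the shared exon, and the part of *lectin-28C* in the loss of *TwdlE* was not tested.

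The second loss was a row that joins *Lcp9* with *egg*, the eggless histone H3K9 methyltransferase, at 2R:20663057-20667951. It had 18.5 FPKM in SIN3 187HA cells and 21.3 FPKM in S2 cells, a difference of -2.80 FPKM but of only -0.19 on the log2 scale. The value cannot be divided between its genes. Without this row the summed level of the cuticle protein genes was 70.1 FPKM in SIN3 187HA cells and 41.6 FPKM in S2 cells. Of the 103 rows with 1 symbol and a locus of their own, 7 gained and 0 lost 1 FPKM.

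The members nearest to the limit show how it divided them. *Cpr31A* lay just inside with a difference of 1.12 FPKM. *Cpr60D* lay just outside, with 5.12 FPKM in SIN3 187HA cells and 4.19 FPKM in S2 cells, as did *Cpr64Ad*, with 0.735 FPKM in SIN3 187HA cells and 1.68 FPKM in S2 cells. *Cpr60D* was among the highest members in both groups and differed by 0.24 on the log2 scale.

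*Cpr73D*, *Cpr51A* and *Cpr50Cb* also reached 1 FPKM in a group. *Cpr73D* had 1.62 FPKM in SIN3 187HA cells and 0.774 FPKM in S2 cells. An exon of it overlaps the gene of a Krebs cycle enzyme, oxoglutarate dehydrogenase, on the other strand (*Nc73EF* in the table), which stood at 115 FPKM in SIN3 187HA cells and 105 FPKM in S2 cells, so its value is uncertain. *Cpr51A* had 1.36 FPKM in SIN3 187HA cells and 0.693 FPKM in S2 cells and shares its locus with *CG30197*, at 0.690 FPKM in SIN3 187HA cells and 0.142 FPKM in S2 cells. *Cpr50Cb* was higher in S2 cells, with 0.468 FPKM in SIN3 187HA cells and 1.22 FPKM in S2 cells, or about 15 fragments against 37.

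The *Cpr* and *Twdl* families both had more rows with a higher than with a lower value in SIN3 187HA cells, as did the whole table, with 6638 rows higher and 5892 lower. Of the 70 *Cpr* rows, 37 had a higher value in SIN3 187HA cells, 22 a lower one and 11 were listed at 0 in both groups. Their levels summed to 60.2 FPKM in SIN3 187HA cells and 26.4 FPKM in S2 cells, most of the difference being *Cpr49Ac*, *Cpr97Eb* and *Cpr67Fa1*. Of the 25 *Twdl* rows, 10 were higher and 4 lower in SIN3 187HA cells and 11 were at 0 in both groups, with sums of 9.13 FPKM in SIN3 187HA cells and 14.4 FPKM in S2 cells, most of the S2 sum being *TwdlE*.

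The larval cuticle protein genes were near 0 throughout, apart from the row joined with *egg*. Of the 15 *Lcp* rows, 8 were at 0 in both groups, 1 was higher in SIN3 187HA cells and 6 were lower there. The *Lcp1* to *Lcp4* cluster, whose products are abundant in the larval cuticle, was listed at 0 in SIN3 187HA cells for all 4 genes and summed to 0.264 FPKM in S2 cells. The large *Cpr65A* and *Lcp65A* cluster, which runs over 18 rows from *Lcp65Ag3* to *Cpr65Az*, had 11 rows at 0 in both groups and summed to 0.599 FPKM in SIN3 187HA cells and 0.346 FPKM in S2 cells. This cluster includes *Lcp65Ab2* and the joined row of *Cpr65Ax1* and *Cpr65Ax2*, each listed at more than 1 position for near-identical copies, and all of these were at 0. *Acp65Aa*, an adult cuticle protein gene, was at 0 in both groups.

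The *Ccp84* and *Edg* genes were no higher. Of the 7 *Ccp84* rows, 5 were at 0 in both groups and the other 2 were at 0.0484 FPKM or less. *Edg78E* and *Edg91* had 0.147 and 0.0852 FPKM in SIN3 187HA cells and were listed at 0 in S2 cells, values that amount to 5 fragments or fewer, and *Edg84A* was at 0 in both groups. *Pcp*, a pupal cuticle protein gene, had 0.256 FPKM in SIN3 187HA cells and 0.230 FPKM in S2 cells. It lies in an intron of the purine synthesis gene *ade3*, which had 37.1 FPKM in SIN3 187HA cells and 57.6 FPKM in S2 cells.

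Of the 122 rows, 96 fell into 18 chromosomal clusters with gaps of at most 50 kb, and most clusters were near silent as a whole. The largest Tweedle cluster, 12 rows from *TwdlM* to *TwdlD*, had 9 rows at 0 in both groups and summed to 0.0728 FPKM in SIN3 187HA cells and 0.0236 FPKM in S2 cells. The *Cpr72E*, *Cpr76B* and *Cpr78C* clusters summed to at most 0.486 FPKM in either group. The 7 *Cpr47E* genes summed to 1.39 FPKM in SIN3 187HA cells and 1.02 FPKM in S2 cells, and *Cpr47Eg* made up most of it with 0.859 FPKM in SIN3 187HA cells and 0.848 FPKM in S2 cells.

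In 2 clusters every gene was lower in SIN3 187HA cells. The 4 genes *Cpr64Aa* to *Cpr64Ad* summed to 0.990 FPKM in SIN3 187HA cells and 2.56 FPKM in S2 cells. They lie in an intron of *CG43367* and share its locus, while *CG43367* itself had 15.8 FPKM in SIN3 187HA cells and 12.1 FPKM in S2 cells. Cuticle genes and host therefore differed in opposite directions. *Cpr62Ba*, *Cpr62Bb* and *Cpr62Bc* summed to 0.141 FPKM in SIN3 187HA cells and 0.396 FPKM in S2 cells, levels of a few fragments. On the X chromosome, *TwdlX*, *TwdlY* and *Twdlalpha* were all higher in SIN3 187HA cells, and *TwdlZ* of the same cluster was at 0 in both groups. The cluster summed to 0.909 FPKM in SIN3 187HA cells and 0.133 FPKM in S2 cells. Its rows share a locus with *CG32568*, at 0.394 FPKM in SIN3 187HA cells and 0 in S2 cells, and *CG9634*, at 1.07 FPKM in SIN3 187HA cells and 0.535 FPKM in S2 cells. An exon of *Twdlalpha* overlaps *CG32568*.

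Low values leaned toward SIN3 187HA cells, as they did in the whole table. Among the cuticle protein genes below 1 FPKM in both groups and above 0 in at least 1, 41 of 69 (59.4%) were higher in SIN3 187HA cells. The share among all such rows was 63.1%. The lean of the many small values was therefore no larger for cuticle protein genes than for other genes at low levels.

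The genes around the members with a gain were examined to see whether whole stretches differed. For each, the 6 nearest rows on each side that are no cuticle protein genes were taken, and the rows named from them were chosen after their values were seen. Around *Cpr49Ac* the median log2 difference was 0.04, but the nearest rows also had large differences. *CG8501*, 2.446 kb away, had 66.0 FPKM in SIN3 187HA cells and 0.764 FPKM in S2 cells, and *CG13155*, 6.54 kb away, had 4.89 FPKM in SIN3 187HA cells and 0.0621 FPKM in S2 cells. *Or49a*, an odorant receptor gene on the other side, had 1.03 FPKM in SIN3 187HA cells and was listed at 0 in S2 cells. The higher levels around *Cpr49Ac* thus took in genes that are not cuticle protein genes. *Sin3A* lies 182 kb from the end of *Cpr49Ac* on the same arm.

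Around *Cpr97Eb* the neighbours had a median of -0.18, with 3 above and 8 below 0. One of them, *eater*, which encodes a phagocytosis receptor of hemocytes, starts 4.736 kb from *Cpr97Eb* and had 2.30 FPKM in SIN3 187HA cells and 50.2 FPKM in S2 cells. *CG14258* and *CG14259*, which lie between them, had differences of 0.23 and 0.01 on the log2 scale. Around *Cpr67Fa1* and *Cpr67Fa2* the median was 0.01 and none of the 12 rows reached 2-fold.

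*Cpr67B* was the gain whose surroundings were mostly higher as well. Of its 12 neighbours, 10 were higher in SIN3 187HA cells, 5 of them by 2-fold. The small heat shock genes *Hsp23* and *Hsp67Ba* were among the higher ones. *Hsp27* was lower, with 85.7 FPKM in SIN3 187HA cells and 102 FPKM in S2 cells. The median difference of the 12 rows was 0.65. *Cpr67B* itself exceeded that median by 0.41. Around *TwdlF* the median was 0.05, although *CG14642*, 4.302 kb away, had 40.8 FPKM in SIN3 187HA cells and 2.98 FPKM in S2 cells. Around *Cpr31A* the median was 0.02. Around *TwdlE* the 12 neighbours had a median of 0.18, with 10 above 0, and *TwdlE* lay 1.61 below that median. The 1 neighbour below 0 was *lectin-28C*, which shares its locus.

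**Figure D3:**
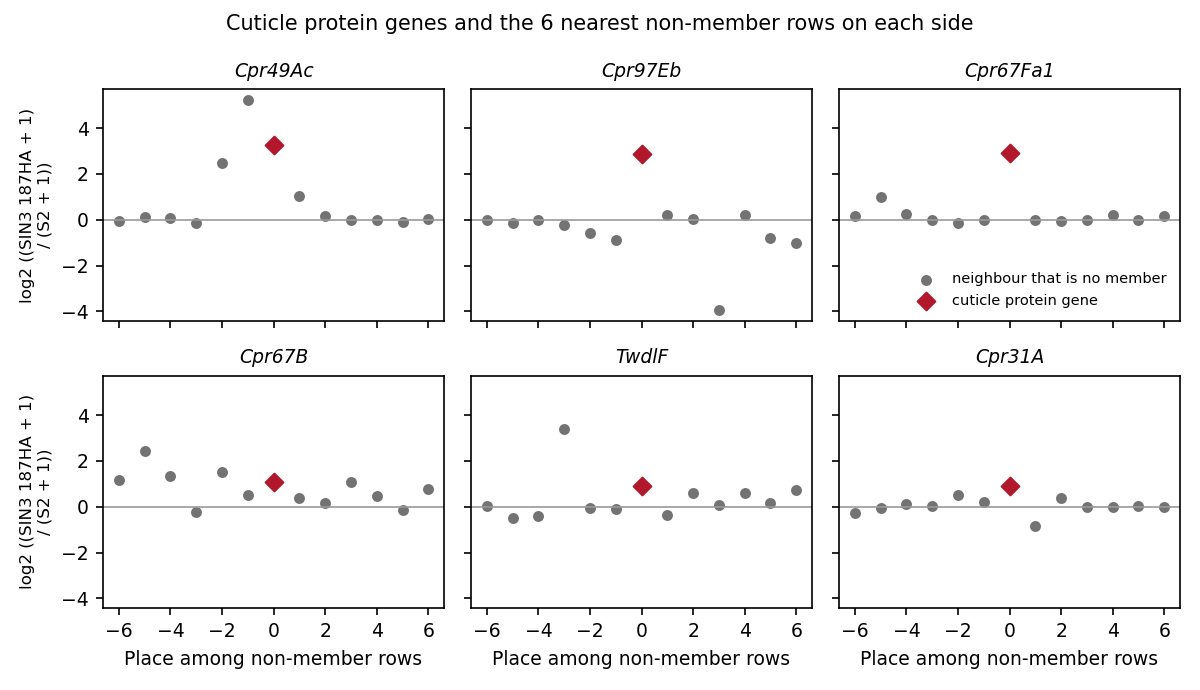
Difference (vertical axis, log2 of (SIN3 187HA + 1)/(S2 + 1)) of 6 cuticle protein genes with a gain (red diamonds) and of the 6 nearest rows on each side that are not cuticle protein genes (grey points). The horizontal axis counts these rows outward from the gene at 0. *CG8501* stands above *Cpr49Ac*, *eater* lies below the axis beside *Cpr97Eb*, and most rows around *Cpr67B* lie above 0.

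Other genes of cuticle assembly were set beside the cuticle proteins. Of 26 genes of chitin synthesis and modification, 11 reached 1 FPKM in SIN3 187HA cells and 10 in S2 cells. Their median difference was 0.12, with 3 higher by 2-fold (11.5%, against 6.59% of all rows) and 1 lower (3.85%, against 6.35% of all rows). The chitinase genes *Cht11* (18.3 FPKM in SIN3 187HA cells and 6.21 in S2 cells), *Cht9* (9.29 FPKM in SIN3 187HA cells and 3.76 in S2 cells) and *Cht4* (2.76 FPKM in SIN3 187HA cells and 0.752 in S2 cells) were the higher ones, and the chitin deacetylase gene *Cda5* was the lower one with 0.348 FPKM in SIN3 187HA cells and 3.48 FPKM in S2 cells. *kkv*, which encodes the chitin synthase of the cuticle, stood at 0.116 FPKM in SIN3 187HA cells and 0.333 FPKM in S2 cells.

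Of 19 genes for peritrophin-type chitin-binding proteins, 18 had a row, with a median difference of 0.15. By 2-fold, 5.56% were higher and 5.56% lower, against 6.59% and 6.35% of all rows. *obst-H* was the 1 gene higher by 2-fold, with 6.26 FPKM in SIN3 187HA cells and 1.92 FPKM in S2 cells. *obst-A*, which protects the chitin matrix of the growing larval cuticle, was the 1 gene lower by 2-fold, with 0.633 FPKM in SIN3 187HA cells and 5.51 FPKM in S2 cells. The genes of this list, like the cuticle protein genes, were mostly below 1 FPKM, with 2 rows at that level in SIN3 187HA cells and 3 in S2 cells.

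Genes that pigment and harden cuticle held large differences in both directions. Of the 22 tanning genes with a row, 2 were higher by 2-fold in SIN3 187HA cells (9.09%, against 6.59% of all rows) and 5 were lower by 2-fold (22.7%, against 6.35% of all rows). Counting differences of any size, 10 were higher and 12 lower, and the median difference was -0.17. *yellow-h* had 2.98 FPKM in SIN3 187HA cells and 77.7 FPKM in S2 cells. *laccase2*, the phenoloxidase that crosslinks cuticle proteins, had 2.74 FPKM in SIN3 187HA cells and 34.9 FPKM in S2 cells. *yellow-f2* had 4.47 FPKM in SIN3 187HA cells and 35.4 FPKM in S2 cells, and *yellow-f* had 76.3 FPKM in SIN3 187HA cells and 254 FPKM in S2 cells. *Pcd*, a pterin enzyme gene, was higher at 105 FPKM in SIN3 187HA cells and 34.7 FPKM in S2 cells.

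Among 11 genes for zona pellucida domain proteins of the apical matrix, 2 were higher by 2-fold (18.2%, against 6.59% of all rows). In the other direction, 1 was lower (9.09%, against 6.35% of all rows). The list had first held 14 genes, and *papi*, *fln* and *trn*, which encode no such protein, were left out after their values were seen. *dpy*, which encodes the giant matrix protein Dumpy that anchors cuticle, had 4.96 FPKM in SIN3 187HA cells and 0.0499 FPKM in S2 cells, and *zye* had 10.7 FPKM in SIN3 187HA cells and 2.04 FPKM in S2 cells. *m*, the miniature gene, had 0.933 FPKM in SIN3 187HA cells and 6.18 FPKM in S2 cells. The median was 0.06 for the 11 genes and 0.05 for all 14.

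**Figure D4:**
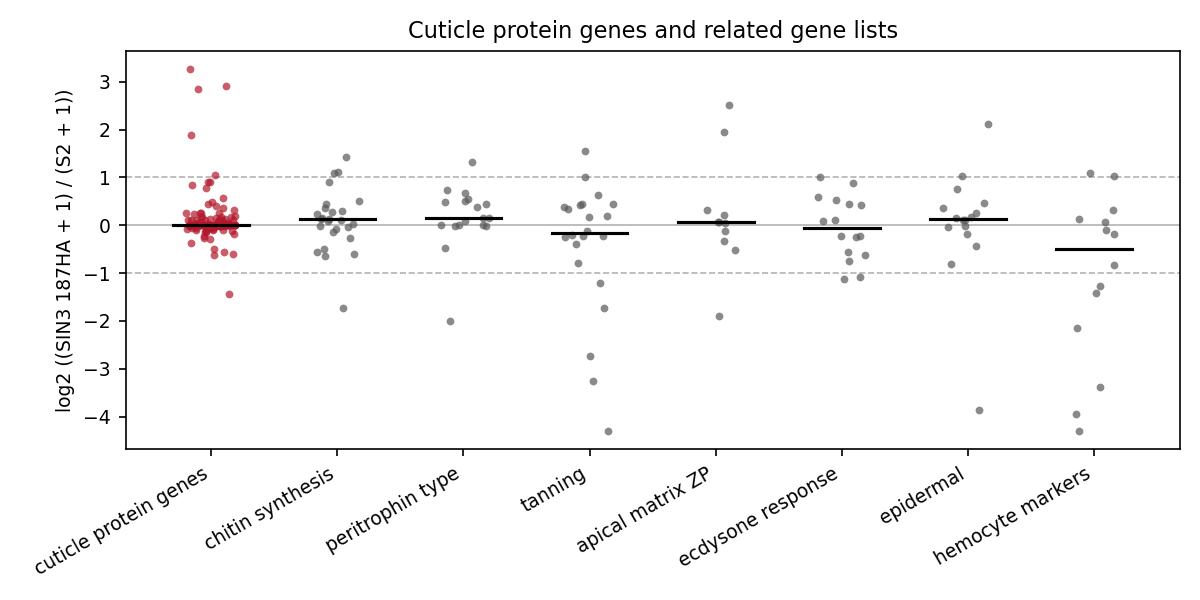
Difference (vertical axis, log2 of (SIN3 187HA + 1)/(S2 + 1), dashed lines at 2-fold) of the 122 cuticle protein rows (red) and of 7 lists of related genes (grey), 1 point per gene and a black bar at the median. The medians lie at 0 for cuticle protein genes, -0.17 for tanning genes and -0.50 for hemocyte markers, and the other 5 lie between -0.06 and 0.15.

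The lists for epidermal cells and for the ecdysone response had medians near 0. The epidermal list holds structural genes of the cell beside transcription factor genes, so its median does not describe regulators of cuticle genes. Of 16 epidermal genes, 2 were higher by 2-fold (12.5%, against 6.59% of all rows) and 1 was lower (6.25%, against 6.35%). Their median was 0.14. *ovo*, the transcription factor gene of larval denticles, had 3.55 FPKM in SIN3 187HA cells and 0.0424 FPKM in S2 cells, *sn*, the fascin gene, had 3.05 FPKM in SIN3 187HA cells and 0.991 FPKM in S2 cells, and the septate junction gene *Fas3* had 0.204 FPKM in SIN3 187HA cells and 16.5 FPKM in S2 cells. *grh*, a regulator of cuticle genes in the epidermis, was near 0 with 0.179 FPKM in SIN3 187HA cells and 0.214 FPKM in S2 cells. The summed level of the epidermal list was 335 FPKM in SIN3 187HA cells and 379 FPKM in S2 cells.

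Of 16 ecdysone response genes, 1 was higher by 2-fold (6.25%, against 6.59% of all rows) and 2 were lower (12.5%, against 6.35%). Their median was -0.06. *Hr4*, a nuclear receptor gene, had 1.77 FPKM in SIN3 187HA cells and 0.383 FPKM in S2 cells. *Eip75B* had 23.1 FPKM in SIN3 187HA cells and 51.9 FPKM in S2 cells, and *Kr-h1* had 5.61 FPKM in SIN3 187HA cells and 13.1 FPKM in S2 cells. All 16 genes were above 0 in both groups, and 14 reached 1 FPKM in SIN3 187HA cells and 12 in S2 cells.

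Markers of the cells themselves moved beside these values. Of 14 hemocyte markers, 2 were higher by 2-fold in SIN3 187HA cells (14.3%, against 6.59% of all rows) and 6 were lower (42.9%, against 6.35%). The markers had a median of -0.50 and a summed level of 508 FPKM in SIN3 187HA cells and 1391 FPKM in S2 cells. *He*, which made up most of the S2 sum, had 72.7 FPKM in SIN3 187HA cells and 766 FPKM in S2 cells. *Sr-CI* had 3.32 FPKM in SIN3 187HA cells and 84.6 FPKM in S2 cells, and *Pxn* had 29.3 FPKM in SIN3 187HA cells and 133 FPKM in S2 cells. *eater* had 2.30 FPKM in SIN3 187HA cells and 50.2 FPKM in S2 cells, and *nimC1* had 1.43 FPKM in SIN3 187HA cells and 5.47 FPKM in S2 cells. The 2 higher ones were *ush*, in a row joined with *MED15*, and *lz*. The *ush* row had 169 FPKM in SIN3 187HA cells and 82.4 FPKM in S2 cells, and *lz* had 1.17 FPKM in SIN3 187HA cells and 0.0155 FPKM in S2 cells. *srp*, the GATA factor gene of hemocytes, stayed high in both, with 77.0 FPKM in SIN3 187HA cells and 86.9 FPKM in S2 cells, and none of the 14 markers was at 0 in either group. In bulk RNA, fewer cells of a type and less RNA per cell cannot be told apart, and the part of this shift in the levels of cuticle protein genes was not tested.

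Markers of other tissues were mostly low. Of 5 genes listed for trachea, 1 was higher by 2-fold (20%, against 6.59% of all rows). It was *bnl*, a growth factor gene and not a marker of tracheal cells, with 4.95 FPKM in SIN3 187HA cells and 1.52 FPKM in S2 cells. *trh*, the transcription factor gene that defines trachea, had 0.242 FPKM in SIN3 187HA cells and 0.127 FPKM in S2 cells, and *term* was at 0 in both. The summed level of the tracheal list was 13.4 FPKM in SIN3 187HA cells and 13.0 FPKM in S2 cells. Of 18 markers of muscle, neurons, fat body and germline, 1 was higher and 1 lower by 2-fold (5.56% each, against 6.59% and 6.35% of all rows). The higher gene was *elav*, with 6.74 FPKM in SIN3 187HA cells and 2.39 FPKM in S2 cells. The lower gene was *zpg*, with 31.6 FPKM in SIN3 187HA cells and 67.4 FPKM in S2 cells. The summed level of the 18 markers was 61.6 FPKM in SIN3 187HA cells and 106 FPKM in S2 cells.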

How the data were processed

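RNA was sequenced from 3 biological replicates each of SIN3 187HA and S2 cells. Paired-end reads were mapped by the authors on the dm3 genome (Tophat, Bowtie2), Cufflinks was run over RefSeq genes, and cuffdiff at its defaults gave the comparison. Tool versions are not given in the sources used here. The authors deposited 1 table with 1 FPKM value per gene and group, the replicates being combined. Its columns of test status, log2 fold change, test statistic, p-value and q-value hold the authors' own comparison and were not used. Libraries were made with a kit that does not mark strand.

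Groups came from the sample labels. With pooled values no test and no interval was possible, so counts, medians and differences in FPKM and on the log2 scale with a pseudocount of 1 FPKM were computed for all 14540 rows and for the members with pandas 2.3.3 and numpy 2.4.6 in Python 3.11.15. The counting was tested on simulated data. The members and gene lists were chosen with earlier results of these data known. Genes were named by rule: *Sin3A*, every member differing by 1 FPKM, the 10 highest members, those nearest the limit, and in each list at most the 5 genes with the largest 2-fold differences. Other names, including neighbours, members of clusters, the 2 higher hemocyte markers and the regulators near 0, were chosen after their values were seen.

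Depth was estimated from genes with 1 transcript longer than 1500 nt. Their FPKM was multiplied by transcript length in kb, less a fragment of 200 nt. The median of the values above 0 and up to 0.03 was taken as the step that 1 fragment gives. The step was 0.0210 in SIN3 187HA cells (76 genes) and 0.0218 in S2 cells (108 genes). Transcript lengths, strand and overlaps came from Ensembl release 115 of a later genome build, and coordinates are those of dm3 as deposited, with the first base counted as 1. Estimated fragments cover counting error only.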

Additional observations from a re-analysis of the deposited data

How the results depend on the processing

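No paired analysis was possible because the deposited columns pool the replicates, and leaving out single replicates was not run for the same reason. With a limit of 0.5 FPKM there were 12 gains and 6 losses, and with 2 FPKM there were 5 gains and 2 losses. Scaling both groups by their sum of FPKM, which raises all values, gave 10 gains and 4 losses, and scaling by the median ratio of 0.961 gave 8 gains and 2 losses. Rows with a locus of their own had 7 gains and 0 losses. With a pseudocount of 0.1 FPKM, 20 members were higher and 8 lower by 2-fold. With 0.5 FPKM, 9 were higher and 1 was lower. A level of 0.5 FPKM was reached by 20 members in SIN3 187HA cells and 14 in S2 cells, and a level of 2 FPKM by 10 in SIN3 187HA cells and 5 in S2 cells. The shares of all rows at these changed settings are not given. The counts therefore do not show whether cuticle protein genes differ from other genes. None of the 9 named differences changed sign under these pseudocounts and scalings. *TwdlF* and *Cpr31A* passed 2-fold with the smaller pseudocounts, and *Cpr31A* also under the sum scaling. Single libraries could not be examined.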

Other observations

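Other genes of cuticle outside the naming rule were looked up after the values of the members were seen. The Tweedle gene *Tb* and the adult cuticle gene *Acp1* were at 0 in both groups. The elastic cuticle protein gene *resilin* had 0.219 FPKM in SIN3 187HA cells and 0.148 FPKM in S2 cells. The 8 genes looked up summed to 0.447 FPKM in SIN3 187HA cells and 0.397 FPKM in S2 cells, and none reached 1 FPKM.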
